A study of Mus musculus with 10 samples.

Results

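The genes described here are 35 components of homologous recombination, the Fanconi anaemia pathway and the DNA damage checkpoint, measured by RNA sequencing in mouse leukemic spleens. They were taken by gene symbol from a table of 20813 genes. All 35 were present, and all had a mean normalized count of at least 10 over the 10 samples, the minimum for testing, which 15276 genes met. The spleens came from irradiated C57BL/6 recipients (a sub-lethal dose) of a T-cell acute lymphoblastic leukemia (T-ALL, a cancer of immature T cells) with a conditional Sirt1 allele. One group of 5 samples is labelled Sirt1 deleted and its titles carry TMX, and the other 5 samples are labelled control and their titles carry VEH. The treatments given were tamoxifen, at 3 mg per mouse in corn oil by intraperitoneal injection, and corn oil alone. The conditional leukemia, the irradiation and the corn oil were thus common to both groups, and tamoxifen and deletion cannot be told apart. The Cre line, the event that started the leukemia and whether the 10 samples share 1 primary leukemia are not stated in the sources used here. Because the labels do not say how samples of a group are related, the p-values measure only the spread between these samples.

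Homologous recombination repairs a broken chromosome by copying the sister chromatid, and it is used mainly in S and G2 phase, so rapidly dividing T-ALL cells rely on it. The ends are first cut back to single strands by the MRE11-RAD50-NBS1 complex with CtIP and by EXO1. BRCA1, PALB2, BRCA2 and other strand exchange proteins then start the search for the matching strand, and the resulting junctions are undone by BLM or cut by nucleases such as MUS81-EME1. The Fanconi pathway handles crosslinked DNA: a core complex ubiquitinates FANCD2 and FANCI, which recruit nucleases and recombination factors. ATM and ATR, with their effector kinases CHK2 and CHK1, sense the damage and hold the cell cycle.

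Normalized counts summed to 33.7 to 34.5 M per sample, after scaling by the authors. Sirt1 itself did not separate the groups (1873 ± 146 against 1810 ± 62.5 normalized counts, SD, n = 5 each, log2 difference 0.05, exact permutation p = 0.413). This gene-level value does not check the deletion either way, so the group is called labelled Sirt1-deleted. Cdkn1a, which encodes the p53-induced cell cycle inhibitor p21, was at 1108 ± 256 against 297 ± 38.3 (limma adjusted p = 3.52e-05), and Trp53 at 7579 ± 1097 against 9296 ± 352 (limma adjusted p = 0.0176, a call that was lost without replicates 7 and 8 of the labelled Sirt1-deleted group). The summed level of 18 T lineage markers was 270973 to 299192 in the labelled Sirt1-deleted samples and 265873 to 283625 in controls, but single markers diverged: 5 were called lower and 3 higher, and 11 of the 18 had negative differences (median log2 difference -0.09). Thy1 was at 79592 ± 17084 against 53217 ± 3677 normalized counts (SD, n = 5 each), while Tcf7, Cd5 and Cd28 were at 75.0%, 65.5% and 69.4% of the control mean (markers chosen after their values were seen). That of 14 neutrophil markers was 28929 to 99803 against 9120 to 12621, and that of 16 macrophage and monocyte markers 7863 to 13914 against 3925 to 4427. Of these lists, 13 of 14 neutrophil and 14 of 16 macrophage and monocyte markers were called higher, and no marker was at 0. In bulk tissue, fewer cells of a type and less RNA per cell cannot be told apart, and the part of the added myeloid RNA in the differences below was not tested.

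In the genome, 11 of the 35 genes (31.4%) start within 1000 bases of a protein-coding gene on the opposite strand that runs the other way, compared with 1343 of 13864 tested protein-coding genes (9.69%). This property was examined after the values had been seen. Positions are from GENCODE M21 on mm10, the build named in the submitters' processing notes. Promoters of RefSeq genes (GRCm38.p6, 250 bases before to 50 after the start) were found for 28 of the 35. They were searched on both strands for 4 kinds of short motif. An E2F-type string (TTTGGCGC, TTTCCCGC, TTTCGCGC or TTTGCCGC) occurred in 6 of 28, against 2.6% of 27025 genes. E2F factors drive the S phase expression of many replication and repair genes. CCAAT, the core of NF-Y sites, occurred in 17 of 28 (60.7%) against 41.1%, and the cell cycle homology string TTTGAA or TTCGAA in 4 of 28 (14.3%) against 21.7%. The interferon response string GAAANNGAA occurred in 5 of 28 (17.9%) against 9.76%. For all 4 kinds of motif the background was every gene with a promoter, including genes not tested here, so it is unlike the 28. A match is only a description of these letters.

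The windows below are shown because they hold an E2F-type string in 3 genes whose transcripts were not called, or CCAAT in 3 genes whose transcripts were. Each runs 5′ to 3′ on the strand of its gene in GRCm38.p6, and capitals mark the match on which the window is centred. The Fanca window holds another CCAAT near its end, left in lower case. The E2F-type windows lie at chr1:71103148-71103207 (Bard1, minus strand), chr5:150522427-150522486 (Brca2, plus strand) and chr5:110839805-110839864 (Chek2, plus strand). The CCAAT windows lie at chr11:101552009-101552068 (Brca1, minus strand), chr11:86201195-86201254 (Brip1, minus strand) and chr8:123318594-123318653 (Fanca, minus strand). None overlaps an annotated exon.
Bard1: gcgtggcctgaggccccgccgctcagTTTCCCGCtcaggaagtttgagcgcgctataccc
Brca2: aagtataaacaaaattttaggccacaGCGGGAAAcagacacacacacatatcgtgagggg
Chek2: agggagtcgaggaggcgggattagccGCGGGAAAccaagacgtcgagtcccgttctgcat
Brca1: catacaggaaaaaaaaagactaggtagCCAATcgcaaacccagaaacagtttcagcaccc
Brip1: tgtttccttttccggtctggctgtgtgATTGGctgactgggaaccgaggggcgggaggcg
Fanca: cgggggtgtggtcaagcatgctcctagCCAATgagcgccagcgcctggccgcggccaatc
The capitals in Brca2, Chek2 and Brip1 are the reverse complement of the string. The 6 genes with an E2F-type string were Bard1, Brca2, Rad51c, Fancg, Chek2 and Topbp1, and none of them was called in the comparison described next. Of the 13 genes called lower, only 7 had a promoter in the table, and 0 of these 7 held an E2F-type string. Of the same 7 genes, 5 held CCAAT, which also occurred in 10 of 18 genes not called and in 2 of 3 called higher.

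The comparison asks how transcripts of the pathway differ between leukemic spleens labelled deleted for Sirt1, which encodes a NAD-dependent deacetylase, and control spleens. Among the 35 genes, 13 fell and 3 rose in the labelled Sirt1-deleted samples (limma on log2(normalized count + 1), Benjamini-Hochberg adjusted p under 0.05 over all tested genes, here termed called). The share called lower was 37.1%, where 19.4% of all tested genes were called lower, and the share called higher was 8.57%, where the background was 16.8%. In either direction 16 genes (45.7%) were called against 36.1% of all tested genes. The median log2 difference of the 35 was -0.14, and that of all tested genes was -0.00014. Changes were modest: the largest fall was to 69.0% of the control mean (Fancm) and the largest rise to 155% (Mus81). The groups did not overlap in 8 of the 35 genes, 5 lower and 3 higher. Of all 15276 tested genes, 3659 (24.0%) had groups that did not overlap, 1968 lower and 1691 higher. By this measure the 35 genes were near the background. Of all called genes 46.4% were higher, which became 58.2% after upper-quartile rescaling and 65.2% after rescaling to T lineage markers. Under either rescaling the 35 genes gave 4 calls higher and 10 lower. Upper-quartile rescaling called 5434 of 15276 tested genes (35.6%), 3162 of them higher. T lineage rescaling called 5101 (33.4%), 3325 of them higher.

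**Figure D1:**
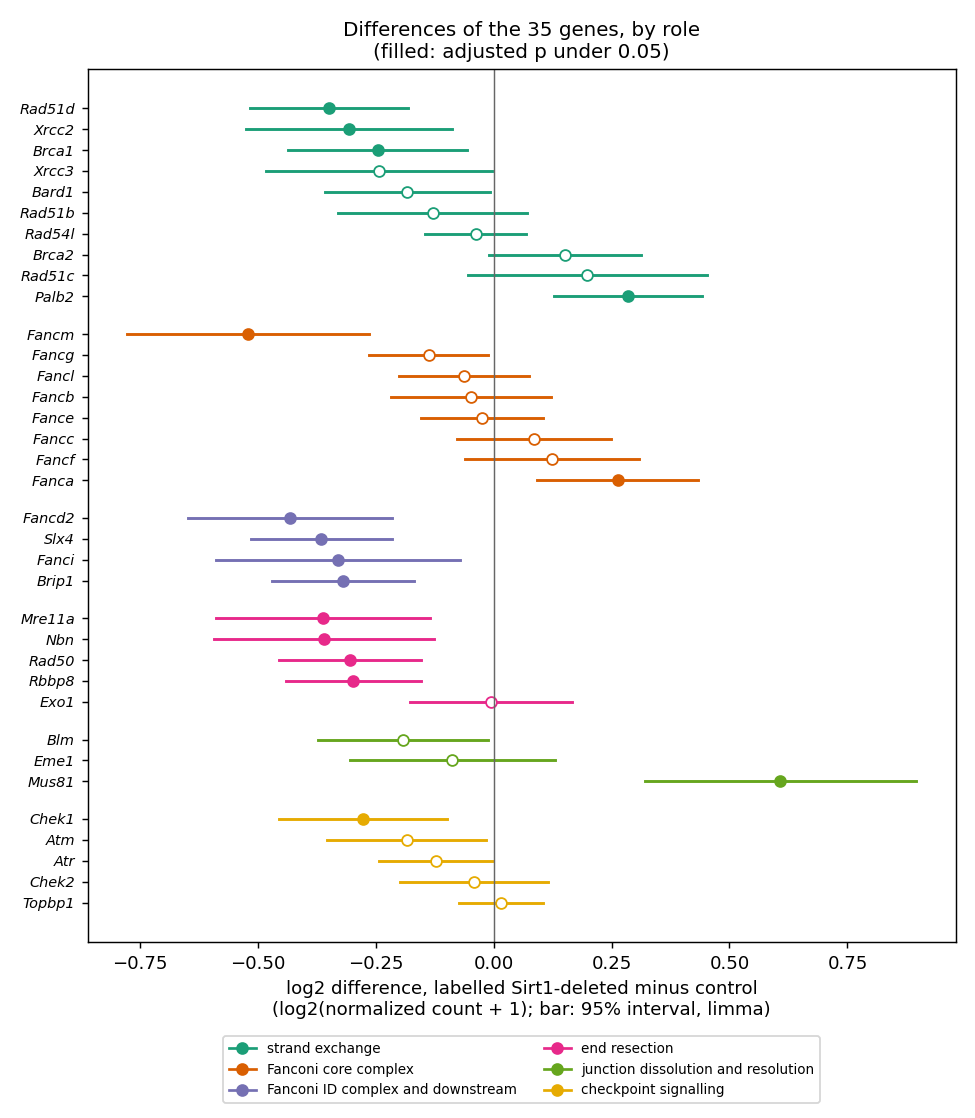
Log2 difference of each of the 35 genes (x axis, labelled Sirt1-deleted minus control, on the log2(normalized count + 1) scale) with its 95% interval from limma, grouped by role on the y axis. Filled points passed an adjusted p of 0.05: 13 lie left of 0 and 3 (Palb2, Fanca and Mus81) lie right of it.

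In the Fanconi effector tier all 4 listed genes were called lower, where 19.4% of all tested genes were, although the call of Fanci was marginal. Fancd2, whose ubiquitinated product marks a stalled fork, was at 1157, 1249, 1611, 1420 and 1190 normalized counts in labelled Sirt1-deleted replicates 7, 8, 10, 11 and 12, and at 2118, 1635, 1637, 1847 and 1677 in control replicates 2 to 6. Every labelled Sirt1-deleted sample was below every control, replicate 10 by the least, and the log2 difference was -0.43 (SE 0.10, limma adjusted p = 0.0063). Fancd2 lies on chromosome 6 at 113531682 to 113597017 and shares 3.24% of its exon bases with Fancd2os on the opposite strand. Emc3, which starts 30 bases away on the other strand, measured 1919 against 1914 (limma adjusted p = 0.967), and the difference between the 2 genes' responses was not tested.

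Fanci, the partner of Fancd2, was at 865, 832, 1178, 1122 and 793 against 1437, 1068, 1132, 1204 and 1128. Replicates 10 and 11 lay among the controls and the other 3 below all of them. Its call was marginal (log2 difference -0.33, SE 0.12, limma adjusted p = 0.0473) and was lost in 7 of the 10 fits that left out 1 sample. Of the exon bases of Fanci, 16.0% are shared with Polg on the opposite strand, and the strand setting of the counting is not stated. The deubiquitinating pair that acts on FANCD2 and FANCI also fell: Usp1 was at 7986 ± 956 against 9983 ± 290 (limma adjusted p = 0.0045), and Wdr48, which encodes its activator, at 1999 ± 186 against 2548 ± 130 (limma adjusted p = 0.00249; SD, n = 5 each). Of the 11 Fanconi partner genes examined, 4 were called lower and 1 higher (19.4% and 16.8% of all tested genes), and 5 had positive differences.

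Slx4 encodes the scaffold that holds structure-specific nucleases at crosslinks. It was at 1425, 1465, 1499, 1636 and 1487 in the labelled Sirt1-deleted samples and at 2273, 1844, 1938, 1791 and 1854 in controls. The groups did not overlap, and the log2 difference was -0.36 (SE 0.07, limma adjusted p = 0.00232, the smallest of the 35). Unlike Fanci, it showed a narrow spread among the labelled Sirt1-deleted samples, of 79.6 (SD). Slx4 lies on chromosome 16 at 3979105 to 4003770. Brip1, the helicase that binds BRCA1, was at 1020, 1135, 1068, 1085 and 963 against 1264, 1379, 1155, 1369 and 1412. It too had no overlap, replicate 8 (1135) lying just under control replicate 4 (1155) (log2 difference -0.32, SE 0.07, limma adjusted p = 0.00471).

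In the Fanconi core complex 6 of 8 genes were not called, and the median log2 difference was -0.04. The share called was 25.0%, against 36.1% of all tested genes. It was 12.5% in each direction, against 19.4% lower and 16.8% higher. The 2 called genes went in opposite directions. Fancm, the translocase that anchors the complex to DNA, was at 787, 822, 1013, 941 and 870 against 1003, 1603, 1405, 1108 and 1303. Replicate 10 exceeded the lowest control and the rest were below all controls (log2 difference -0.52, SE 0.12, limma adjusted p = 0.00569), with controls more spread (SD 238) than the labelled Sirt1-deleted samples (SD 91.3). Fanca was at 2117, 2217, 1972, 2024 and 2583 against 1831, 1931, 1970, 1674 and 1670. The groups were separated only narrowly, by 1972 against 1970, and the call (log2 difference 0.26, SE 0.08, limma adjusted p = 0.0205) was lost without control replicate 5 and without control replicate 6. Zfp276 on the opposite strand shares 10.5% of the exon bases of Fanca.

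Among core genes that were not called, Fancg had a log2 difference of -0.14 (limma adjusted p = 0.0834), the farthest below 0. Fancl, the ubiquitin ligase subunit, was at 792 ± 50.1 against 827 ± 38.0 normalized counts, with a 95% interval of the log2 difference from -0.20 to 0.08. Fancb, Fancc, Fance and Fancf had log2 differences from -0.05 to 0.12, each within the spread between replicates (limma adjusted p from 0.274 to 0.778).

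End resection genes made the most uniform fall after the effector tier, with 4 of 5 called lower, where 19.4% of all tested genes were. The groups did not overlap in 1 of the 5, against 24.0% of all tested genes. The 3 subunits of the MRN complex, which binds and trims broken ends, all fell. Mre11a was at 1799, 1828, 2439, 2266 and 1626 against 2766, 2271, 2380, 2543 and 2720 (log2 difference -0.36, SE 0.10, limma adjusted p = 0.0181). Replicate 10 lay among the controls and replicate 11 just under the lowest of them. Rad50 was at 2478, 2515, 2963, 2568 and 2244 against 3174, 3073, 2890, 3356 and 3224 (log2 difference -0.30, SE 0.07, limma adjusted p = 0.00597). Nbn, which encodes NBS1, was at 1240, 1377, 1654, 1598 and 1059 against 1823, 1703, 1607, 1806 and 1841 (log2 difference -0.36, SE 0.11, limma adjusted p = 0.0207), and its call was lost without labelled Sirt1-deleted replicate 7. In all 3 genes replicate 10 was the highest labelled Sirt1-deleted sample and the only one inside the control range, and replicate 12 was the lowest.

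Rbbp8, which encodes CtIP, the activator of MRE11, was at 1961, 2097, 2484, 2254 and 2007 against 2814, 2647, 2526, 2689 and 2557. There was no overlap between the groups (log2 difference -0.30, SE 0.07, limma adjusted p = 0.00515). Exo1, the exonuclease of long-range resection, went with none of them: it was at 2321 ± 201 against 2332 ± 238 (SD, n = 5 each), and its log2 difference of -0.01 had a 95% interval from -0.18 to 0.17.

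**Figure D2:**
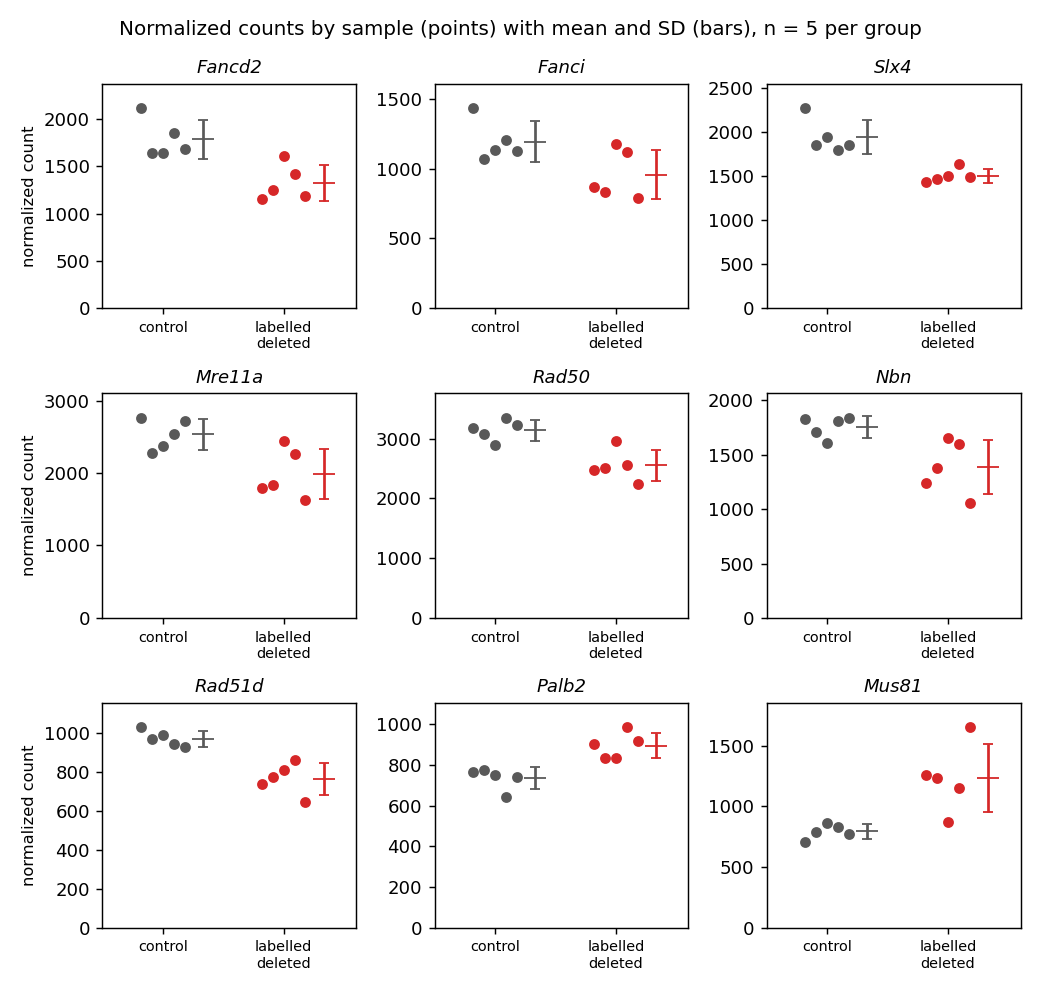
Normalized counts (y axis, from 0) of 9 of the genes in each of the 5 control and 5 labelled Sirt1-deleted samples (points), with mean and SD beside them. In Mre11a, Rad50 and Nbn the highest labelled Sirt1-deleted sample (2439, 2963 and 1654) lies inside the control range, whereas in Slx4, Rad51d and Palb2 the groups are apart.

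The genes of strand exchange were divided. Brca1 was at 1809, 1872, 2372, 2364 and 1882 against 2581, 2229, 2272, 2627 and 2440. Replicates 10 and 11 fell among the controls, and the call (log2 difference -0.25, SE 0.09, limma adjusted p = 0.0443) was lost in 6 of 10 fits without 1 sample. Bard1, its obligate partner, had a log2 difference of -0.18 (limma adjusted p = 0.0934) and passed only with array weights, without replicate 10 or without replicates 10 and 11. Nbr1, which starts 194 bases from Brca1 on the other strand, measured 2380 against 2582 (limma adjusted p = 0.209).

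Palb2, which bridges BRCA1 to BRCA2, rose: it was at 902, 836, 832, 984 and 919 against 766, 772, 748, 642 and 741. The groups were apart (log2 difference 0.29, SE 0.07, limma adjusted p = 0.00974). Palb2 lies on chromosome 7 at 122107262 to 122132985 and shares 5.64% of its exon bases with the pseudogene Gm16326 on the opposite strand. The neighbour Dctn5, 56 bases away on the other strand, measured 2505 against 2225 (log2 difference 0.17, limma adjusted p = 0.0235). Brca2, which acts next to Palb2 in strand exchange, measured 1606 ± 126 against 1447 ± 133 (SD, n = 5 each; log2 difference 0.15, limma adjusted p = 0.130). It passed, as higher, under each of 3 rescalings.

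Rad51b, Rad51c, Rad51d and Xrcc2 encode subunits of one strand exchange complex, and Rad51c and Xrcc3 those of another. Their transcripts did not move alike. Rad51d, on chromosome 11 at 82876434 to 82890614, was at 738, 775, 812, 861 and 646 against 1031, 969, 993, 943 and 928. All labelled Sirt1-deleted samples were lower than all controls (log2 difference -0.35, SE 0.08, limma adjusted p = 0.00498). Xrcc2 was at 689, 670, 748, 701 and 523 against 843, 858, 833, 887 and 687 (log2 difference -0.31, SE 0.10, limma adjusted p = 0.0313). Only control replicate 6 overlapped with the lower group, and the call was lost in 6 of 10 fits without 1 sample. Rad51c was at 468, 423, 625, 560 and 498 against 380, 468, 405, 459 and 523, a log2 difference of 0.20 that did not pass (limma adjusted p = 0.201). Rad51b (-0.13) and Xrcc3 (-0.24) did not pass either (limma adjusted p = 0.294 and 0.102). Rad54l, a motor protein of strand exchange, had a log2 difference of -0.04 with a 95% interval from -0.14 to 0.07.

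Junction processing held the largest rise. Mus81, the nuclease subunit that cuts branched DNA, was at 1260, 1233, 869, 1154 and 1652 in labelled Sirt1-deleted replicates 7, 8, 10, 11 and 12 and at 708, 788, 867, 834 and 773 in controls. The samples were graded: replicate 10 was only just above control replicate 4, and replicate 12 was the highest (log2 difference 0.61, SE 0.13, limma adjusted p = 0.00472). Mus81 lies on chromosome 19 at 5482345 to 5488402, and 4.85% of its exon bases are shared with Efemp2 on the opposite strand. Eme1, which encodes the obligate partner of MUS81, was at 780 ± 88.2 against 829 ± 105 (SD, n = 5 each), a log2 difference of -0.09 with a 95% interval from -0.30 to 0.13. Blm, the helicase that dissolves double junctions, was at 1792, 1793, 2419, 1993 and 2257 against 2296, 2376, 2474, 2201 and 2287. Replicates 10 and 12 lay inside the control range. The log2 difference of -0.19 did not pass (limma adjusted p = 0.088) except in the same alternatives as Bard1.

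Of the 5 checkpoint genes, 1 was called lower and 0 higher, where 19.4% and 16.8% of all tested genes were. The called gene was Chek1. It was at 1927, 1872, 2204, 2365 and 1820 against 2446, 2410, 2180, 2508 and 2765, with replicates 10 and 11 inside the control range (log2 difference -0.28, SE 0.08, limma adjusted p = 0.0206). Its call was lost without control replicate 6, the highest control. Chek2, the effector of ATM, was at 1021 ± 85.1 against 1050 ± 72.2, with a 95% interval of the log2 difference from -0.20 to 0.12. Topbp1, which activates ATR, was at 11239, 10663, 11964, 11179 and 11431 against 11153, 11173, 10841, 11429 and 11243, a log2 difference of 0.02 with the narrow interval of -0.07 to 0.10.

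The sensor kinases Atm and Atr were lower on average, and neither passed. Their log2 differences were -0.18 (limma adjusted p = 0.0814) and -0.12 (limma adjusted p = 0.1001). Npat, which shares the start region of Atm at 307 bases, was at 1861 against 2220 (log2 difference -0.26, limma adjusted p = 0.0134). No test of the difference between Atm and Npat was made.

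**Figure D3:**
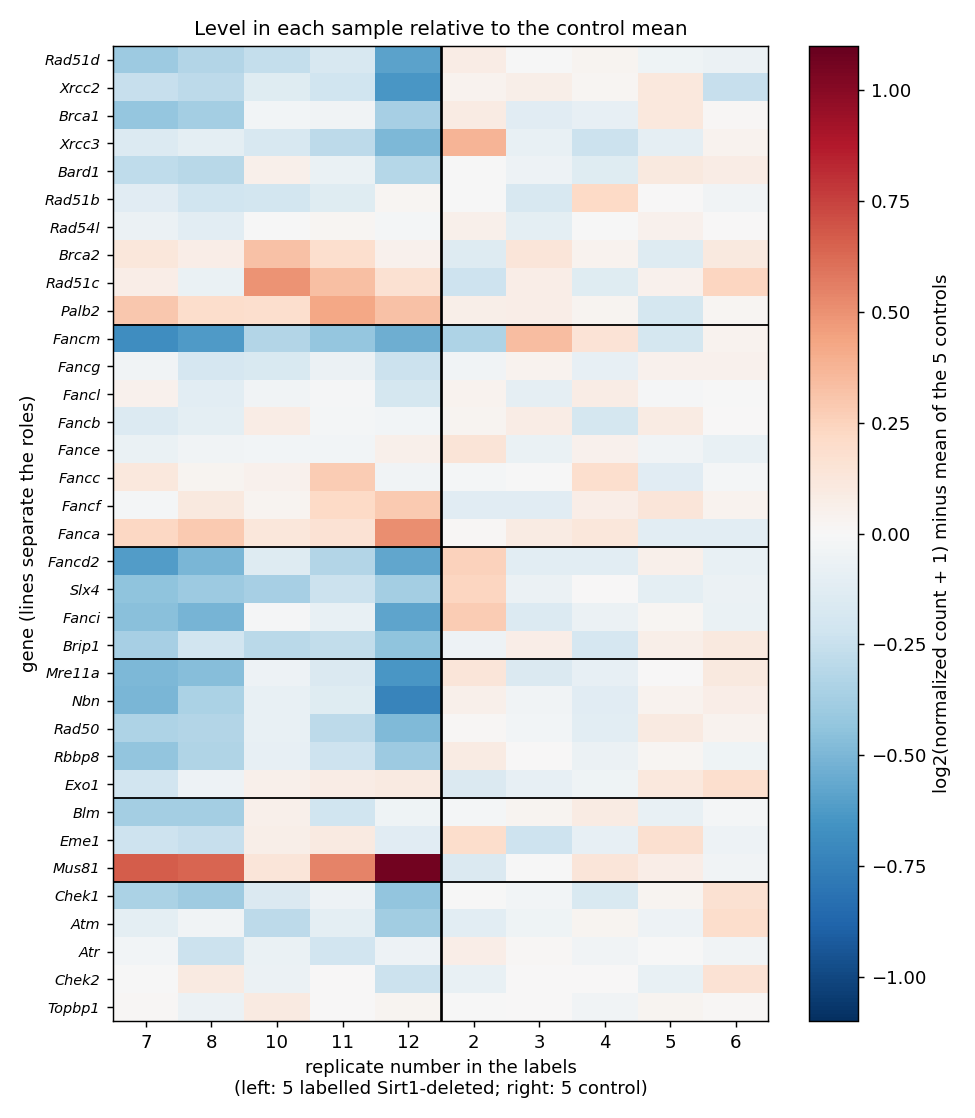
Level of each gene (rows, grouped by role) in each sample (columns, by replicate number) as log2(normalized count + 1) minus the mean of the 5 controls. Replicates 7, 8 and 12 are darker blue than replicates 10 and 11 in most of the genes that fell, and Mus81 is red in all 5 labelled Sirt1-deleted samples and palest in replicate 10.

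The labelled Sirt1-deleted samples differed among themselves in the depth of the fall. Of the 13 genes called lower, replicates 8 and 12 were below every control in 13, replicate 7 in 12, replicate 11 in 9 and replicate 10 in 5. The 13 genes were called on these same samples, so these counts are only a description. Over all 35 genes, replicates 7, 8, 10, 11 and 12 were below every control in 15, 22, 9, 12 and 20. They were above every control in 3, 3, 6, 7 and 5. The matching counts over all tested genes were not made. The median of the 35 genes relative to the control mean was -0.15, -0.21, -0.04, -0.06 and -0.24 on the log2 scale in replicates 7, 8, 10, 11 and 12, while controls ranged from -0.04 to 0.02. Replicates 10 and 11 also had lower summed neutrophil markers (28929 and 39680) than replicates 7, 8 and 12 (59918, 99803 and 44641). Replicate 12 had the lowest median and the third highest neutrophil sum. Summed macrophage and monocyte markers were at 9177, 13914, 7863, 9103 and 8784 in replicates 7, 8, 10, 11 and 12. Whether the depth of the fall was related to myeloid RNA was not tested. When replicates 10 and 11 were left out together, all 16 calls were kept and Bard1 and Blm were added as lower. That fit called 45.6% of all tested genes. The omission was chosen after the values were seen, and the omitted samples had fallen least. Its outcome follows from this choice and is only a description. Replicates 7 and 8, the richest in neutrophil markers, were also left out together, likewise after the values were seen. Then 9 of the 16 calls were kept: Palb2, Rad51d, Fancm, Fancd2, Brip1, Slx4, Rad50, Rbbp8 and Mus81. In that fit of 3 against 5 samples, 22.2% of all tested genes were called.

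A wider list of 61 further genes of the pathway was examined, of which 59 were tested. Of these, 15 fell (25.4%, against 19.4% of all tested genes) and 10 rose (16.9% against 16.8%), and the median log2 difference was -0.02. The share that rose was thus at the background. Among those called, the largest falls were in Shld2, a subunit of the shieldin complex that limits resection (589 ± 40.2 to 400.4 ± 67.9 normalized counts, log2 difference -0.57), the helicase Wrn (1697 ± 175 to 1172 ± 147, -0.54) and Mdc1, the scaffold on phosphorylated H2AX (3456 ± 300.4 to 2594 ± 292, -0.42; limma adjusted p = 0.00234, 0.00177 and 0.00258). The largest rises were in Rnf8, the ubiquitin ligase that acts after MDC1 (1271 ± 88.4 to 1665 ± 146, 0.39), Polq, the polymerase of microhomology-mediated joining (1297 ± 124 to 1640 ± 120, 0.34), and Sem1, a small partner of BRCA2 (4279 ± 279 to 5424 ± 494, 0.34; limma adjusted p = 0.00202, 0.00564 and 0.00286). Errors are SD over 5 samples. Dissolution and resolution partners had 4 of 8 called lower and 0 higher, whereas strand exchange partners had 1 lower and 3 higher of 12.

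Genes of the alternative repair route and of the cell cycle gave the context. For comparison, 19.4% of all tested genes were called lower and 16.8% higher. Of 10 end-joining genes, 7 fell (70.0%) and 0 rose (median log2 difference -0.22), with the largest fall in Nhej1 (234 ± 67.7 to 129 ± 51.1, limma adjusted p = 0.0209). Of 30 replication genes, 9 fell (30.0%) and 4 rose (13.3%, below the background; median -0.03): Pola1, the catalytic subunit of polymerase alpha, went from 4540 ± 379 to 3209 ± 679 (limma adjusted p = 0.00702) and the helicase subunit gene Mcm3 from 12590 ± 918 to 16880 ± 1880 (limma adjusted p = 0.00168). Of 25 mitosis genes, 11 fell (44.0%) and 2 rose (8.0%; median -0.23), including a fall of Bub1b, a spindle checkpoint kinase (8502 ± 566 to 5632 ± 1205, limma adjusted p = 0.00271), and a rise of Birc5, which encodes survivin (5746 ± 366 to 6726 ± 410.0, limma adjusted p = 0.00914). Errors are SD, n = 5. The 35 genes, with a median of -0.14, thus stood between the replication and the mitosis list, and none of these medians was tested against another.

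**Figure D4:**
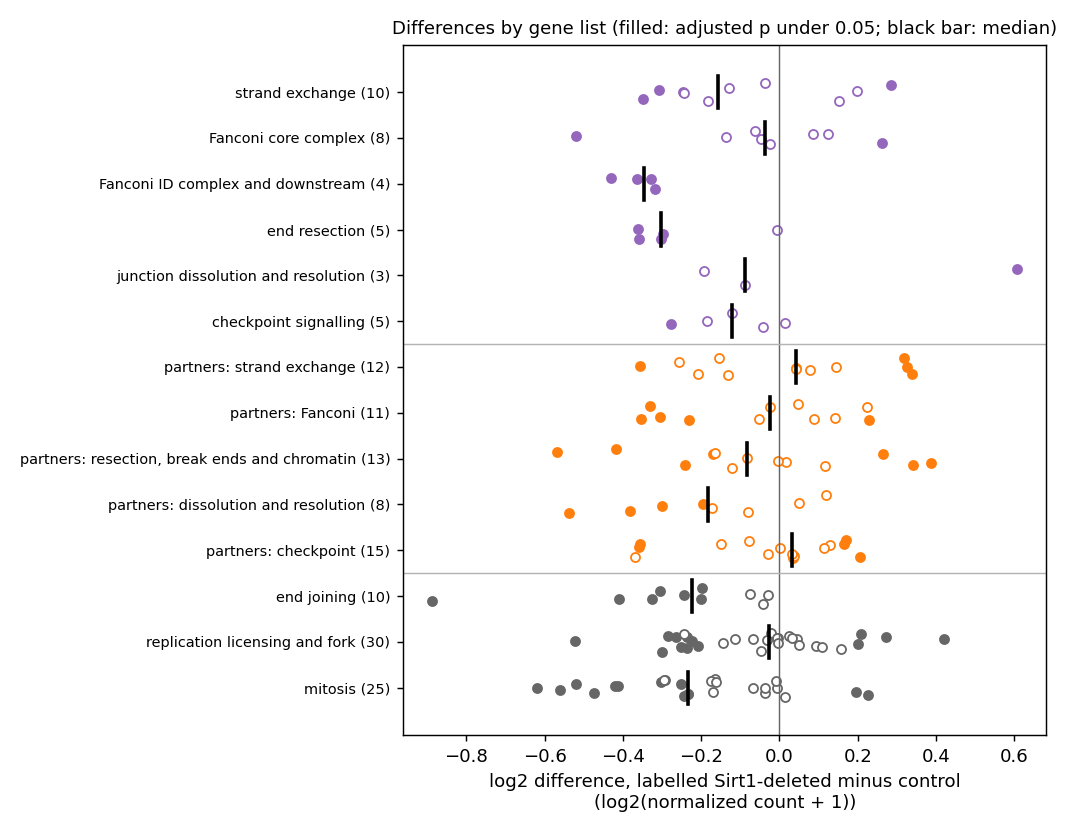
Log2 difference (x axis) of each gene in the 6 roles of the 35 genes, in 5 lists of partner genes and in 3 lists of end-joining, replication and mitosis genes (rows, number of tested genes in parentheses). Filled points passed an adjusted p of 0.05, and black bars are medians. The ID complex and end resection rows have the lowest medians among the 6 roles, at -0.35 and -0.30.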

How the data were processed

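Leukemic spleens of 10 mice, 5 per group, were compared. The authors' deposited table holds a normalized signal, gene counts divided by DESeq normalization factors. The submitters' processing notes name kallisto 0.44.0, DESeq and mm10. The annotation, strand setting and gene filter are not given in the sources used here. Kallisto assigns reads among transcripts, so overlapping genes and isoforms can share reads. Low values (at most 8.5 reads) fell within 0.1 of whole reads in only 64.6% to 74.0% of cases per sample. Read counts could therefore not be restored, edgeR was not run, and the depth is unknown.

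From these values, log2(value + 1) of the 15276 genes with a mean of at least 10 was fitted with limma 3.58.1 in R 4.3.3 (group as the only term, intensity trend, Benjamini-Hochberg). The script was tested on simulated data. An exact permutation test of single genes (two-sided) used all 252 assignments. The members and lists were chosen with earlier results of these data known, so lists received no test. All 35 genes are described, with values by sample for called genes without overlap and for the extremes of each role. Partners named are the 3 largest rises and falls called (1 further gene of the naming rule is not reported here), and for the context lists the largest rise and fall called. Usp1, Wdr48, the neighbours and the other values by sample were chosen after the values were seen. Shfm1 was matched as Sem1, and Hrob, Ahsp, Dmc1, Cdh5 and Tek were not tested. The marker lists of B cells (0 of 8 called), erythroid cells (0 of 9), and stroma and endothelium (1 of 6, lower) were also examined. The table had 0 columns outside the 10 samples.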

Additional observations from a re-analysis of the deposited data

Results flagged for a closer look

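In 100 sets of 5 samples (a gene within a group), the highest or lowest sample was checked for standing apart from the rest. Its distance to the next sample exceeded 0.71 of the range in 4 sets, where 5 are expected by chance at 1 in 20. Palb2 in control replicate 5 was at 642 normalized counts, below 741 to 772 in the other controls, and without that sample Palb2 was still called higher (log2 difference 0.24, limma adjusted p = 0.0248). Xrcc2 in control replicate 6 was at 687, below 833 to 887, and without it the call was kept with a log2 difference of -0.37 (limma adjusted p = 0.0152). Polq in control replicate 2 was at 1075, below 1336 to 1361. Mcm3 in labelled Sirt1-deleted replicate 12 was at 20166, above 15529 to 16505, the sample in which Mus81 and Fanca were also highest.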

How the results depend on the processing

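No paired analysis was possible because no replicate number occurs in both groups (7, 8, 10, 11 and 12 against 2 to 6), and the planned edgeR test was not run for want of whole reads. Of the 16 called genes, all 16 were kept with pseudocounts of 0.1 and 5, a minimum mean of 50 and array weights, 14 with a minimum mean of 1 or no filter (without Brca1 and Fanci), and 13 under each rescaling and without the intensity trend (Xrcc2 also lost). The number of the 35 genes called lower was 5 with the exact rank-sum test, which calls only genes without overlap. It was 7 at an adjusted p under 0.01 and 7 without labelled Sirt1-deleted replicates 7 and 8. Without 1 sample it was 10 to 15. The number higher was 2 to 3. Of all 15276 tested genes, the rank-sum test called 1968 lower and 1691 higher, so there the 35 genes were near the background. At an adjusted p under 0.01, 2850 of 15276 genes were called in either direction, and 9 of the 35. Without replicates 7 and 8, 3376 of 15217 were called, and again 9 of the 35. The median of the 35 genes moved to -0.055 after rescaling to T lineage markers, with that of all genes at 0.082. It was -0.17 to -0.13 without 1 sample. Partner genes called higher were 16 after upper-quartile rescaling, 6 at the stricter p and 7 to 10 without 1 sample. Those called lower were 9 after T lineage rescaling and with the rank-sum test, 8 at the stricter p, 8 without replicates 7 and 8, and 11 to 18 without 1 sample. Of the 65 end-joining, replication and mitosis genes, 27 in all were called lower. This became 14 after T lineage rescaling, 11 with the rank-sum test, 11 at the stricter p and 10 without replicates 7 and 8. It was 16 to 35 without 1 sample, with 16 without labelled Sirt1-deleted replicate 7 and without control replicate 5. The number called among all genes moved in these fits too. It ranged from 4207 of 15309 without control replicate 2 to 6259 of 15217 without labelled Sirt1-deleted replicate 10. The totals for all genes in each setting thus apply also to the 59 partner genes and these 65 genes, and no list was tested against them.

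The cause of these moves was not tested beyond the settings themselves. No called gene changed sign in any setting run. Genes near 0 did. Under upper-quartile rescaling the log2 differences were 0.021 (Rad54l), 0.012 (Fancb), 0.035 (Fance), 0.054 (Exo1) and 0.018 (Chek2). Under quantile normalization they were 0.023 (Rad54l), 0.035 (Fance), 0.057 (Exo1) and 0.014 (Chek2), and after T lineage rescaling 0.045 (Rad54l), 0.036 (Fancb), 0.058 (Fance), 0.020 (Fancl), 0.078 (Exo1) and 0.041 (Chek2). Topbp1 was at -0.0049 with array weights and -0.0078 without replicates 10 and 11. Without replicates 7 and 8, Fancb was at 0.0088, Exo1 at 0.079 and Eme1 at 0.013. Without 1 sample, Exo1 ranged from -0.046 to 0.046, Topbp1 from -0.0054 to 0.036, Chek2 from -0.076 to 0.0073 and Fance from -0.045 to 0.012. The omissions of replicates 10 and 11 and of 7 and 8 were chosen after seeing the data.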
